A study of Mus musculus with 32 samples.

Results

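The 10 genes described here encode subunits of the BAF (mammalian SWI/SNF) chromatin remodelling complex in mES cells that were driven toward primitive endoderm (PrE) by a doxycycline (Dox)-inducible Gata6 transgene. They were chosen by symbol, with earlier results of these data known, and are 10 of the 54233 genes in the table: the ATPases Smarca4 and Smarca2, the scaffold pair Smarcc1 and Smarcc2, the BAF60 subunits Smarcd1, Smarcd2 and Smarcd3, the ARID1 pair Arid1a and Arid1b, and the BAF53 subunit Actl6a. All cells came from 1 mouse KH2 line (C57BL/6 by its label) with a TRE-driven GATA6 and DsRed2 transgene, and all 8 groups carried the transgene. The 0 h group was kept in 2i medium (PD0325901, CHIR9902 and LIF) without Dox, and the groups at 2, 4 and 8 h received 1 ug/ml Dox in serum medium with LIF. The groups at 16, 24, 48 and 96 h received Dox in serum medium for 12 h, followed by serum medium without Dox. Dox and the change of medium therefore cannot be told apart against 0 h, while 48 h against 2 h compared cells that were all in serum medium. The 2 and 48 h groups still differed in the hours since leaving 2i medium, and only the former still had Dox.

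BAF complexes use the energy of ATP to slide or evict nucleosomes. Each complex holds 1 ATPase, either SMARCA4 (BRG1) or SMARCA2 (BRM), and several other positions are likewise filled by 1 of a few paralogous proteins. ES cells are known for a complex rich in SMARCA4, SMARCC1 and ARID1A, and paralogues are exchanged as cells differentiate, as in neurons, where ACTL6B takes the place of ACTL6A, or in heart muscle, where SMARCD3 enters the complex. The counts below are of mRNA, and incorporation of a subunit into the complex was not measured.

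RNA-seq was available for 32 samples, 4 replicates at each of 8 time points, with 3190108 to 12301732 reads on genes per sample (median 8870662.5). Reads on the row named Gata6 rose from 0 to 0.806 normalized counts at 0 h to between 11.4 and 17.2 at 2 h and between 1887 and 2219 at 96 h. The transgene carries the coding part of the gene only, so reads in coding exons can stem from either copy. The summed level of 8 ES cell and epiblast markers was 36241 to 43144 normalized counts at 0 h and 3616 to 4357 at 96 h, and that of 9 PrE markers went from 631 to 901 to between 212574 and 296946. Trophectoderm markers summed to 104 to 399 normalized counts over the course, mesoderm and heart markers to 6.62 to 436, neural markers to 13.2 to 497 and fibroblast markers to at most 19.6. Libraries fell into a set of replicates 1 and 2 and a set of replicates 3 and 4: read counts of 2 libraries of the same time point differed by a median chi-square per degree of freedom of 1.59 within a set and 11.4 between the sets. The labels do not say what the sets are. The study states that replicate experiments were independent, but not whether the replicates of a set shared a culture, so the spread within a set may be partly technical. The sets also differed in markers: mesoderm and heart markers summed to a mean of 433 normalized counts at 0 h in replicates 1 and 2 and 62.3 in replicates 3 and 4, and PrE markers at 48 h to 128332 and 227893. Values within each set are given below for some of the levels and ratios where the sets parted.

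Per kilobase of exon, the levels of the 10 genes at 0 h were ordered from Actl6a (450.0 ± 37.2 normalized counts per kb, SD, n = 4) through Smarcc1 (352 ± 30), Smarca4 (306 ± 47.6), Smarcd1 (277 ± 40.2), Smarcd2 (195 ± 24.4), Arid1a (152 ± 21.3) and Smarcc2 (72.1 ± 15.5) to Smarcd3 (32.4 ± 3.48), Arid1b (27.2 ± 4.53) and Smarca2 (8.15 ± 3.41). In that order Smarca4 overlapped both Smarcc1 and Smarcd1 in its replicates, and Smarcd3 overlapped Arid1b. At 96 h the order was Smarca4 (323 ± 53.7), Smarcc1 (215 ± 11.5), Actl6a (213 ± 7.49), Smarcd2 (196 ± 6.94), Smarcd1 (195 ± 12.8), Arid1a (141 ± 16.7), Smarcc2 (82.7 ± 8.25), Smarca2 (48.8 ± 6.08), Arid1b (27.3 ± 1.52) and Smarcd3 (7.73 ± 0.979). Of these neighbours Smarcc1 and Actl6a, Actl6a and Smarcd2, and Smarcd2 and Smarcd1 overlapped in their replicates. The order depends on the length used. Per kilobase of the longest transcript, Actl6a had 870.04 normalized counts at 0 h, ahead of Smarcc1 (477), Smarcd1 (337) and Smarca4 (310.4), and at 96 h it was still at the head with 411 before Smarca4 (328) and Smarcc1 (292), where its samples overlapped those of Smarca4. With either length, Smarca2 was lowest at 0 h and Smarcd3 at 96 h.

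**Figure D1:**
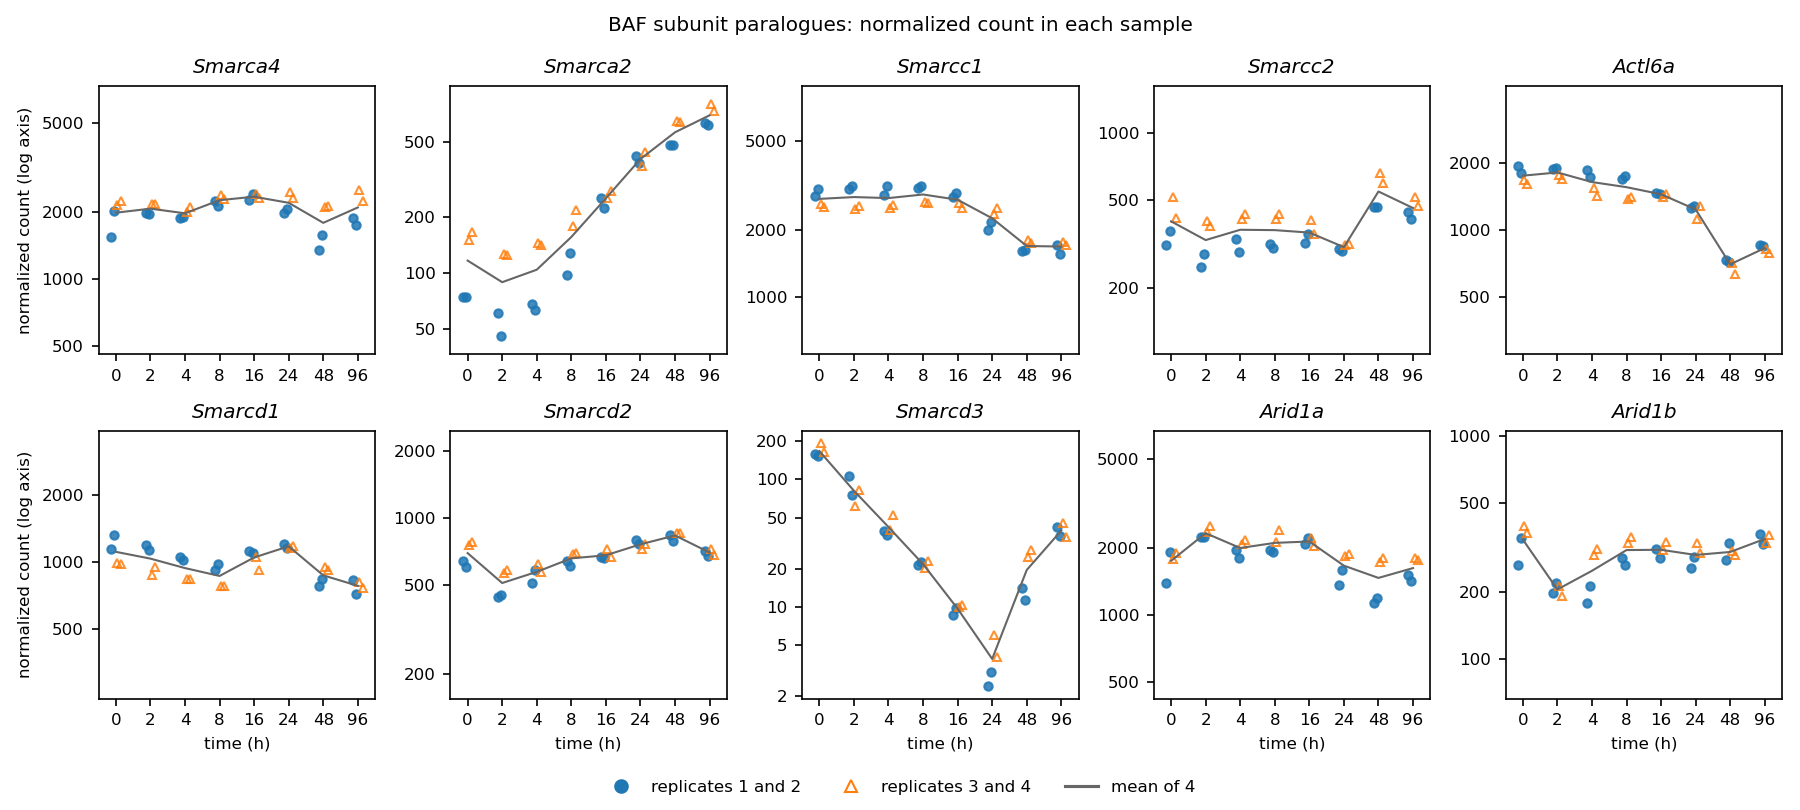
Normalized count (log axis) of the 10 BAF subunit genes in each of the 32 samples against time in h (evenly spaced positions, not to scale). Filled circles are replicates 1 and 2, open triangles replicates 3 and 4, and lines join the means of 4. Smarca2 climbed from a mean of 116 at 0 h to 696 at 96 h, Smarcd3 fell from 166 to 3.93 at 24 h and then stood at 39.6 at 96 h, and Actl6a fell from 1749 to 699 at 48 h.

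Smarca2 and Smarcd3 were the members whose mean level differed by at least 4-fold between their lowest and highest time points. Their promoters are shown because a factor of the GATA family was induced and a core form of the GATA motif can be looked up in them. The sequences are from RefSeq on GRCm38.p6, upstream of an annotated start site and clipped where a GENCODE exon of the gene begins. They are chr19:26604910-26605049 on the + strand for Smarca2 (140 bases) and chr5:24602013-24602252 on the - strand for Smarcd3 (240 bases). The Smarcd3 window lies inside the GENCODE interval of the gene (chr5:24590818-24624411), so the start at the far end of that interval is not shown. Lower case is 5′ to 3′ sequence of the gene's strand, and capitals mark a match to GATAA or to its reverse complement TTATC.
Smarca2: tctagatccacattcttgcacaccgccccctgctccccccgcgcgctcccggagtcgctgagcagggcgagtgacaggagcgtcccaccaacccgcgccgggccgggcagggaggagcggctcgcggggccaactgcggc
Smarcd3: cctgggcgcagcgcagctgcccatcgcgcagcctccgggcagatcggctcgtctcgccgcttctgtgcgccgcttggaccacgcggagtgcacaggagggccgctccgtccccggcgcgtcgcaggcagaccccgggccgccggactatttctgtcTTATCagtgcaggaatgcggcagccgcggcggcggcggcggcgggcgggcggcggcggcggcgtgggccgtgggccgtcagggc
Both windows are rich in G and C, at 73.6% for Smarca2 and 76.7% for Smarcd3. The Smarca2 window held no match and the Smarcd3 window held 1, which begins 94 bases before the start site used here. Over 250 bases before the start, 22.6% of the 32851 promoters in the table held a match, and in windows of 140 and 240 bases 14.9% and 22% did. All 10 members are in that table, with 11 promoters, of which 3 held a match (Arid1a, Smarcd1 and Smarcd3). These matches are a description of the letters and not of binding.

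At the ATPase position, Smarca2 rose while Smarca4 stayed near its starting level, so that the pair moved from almost all Smarca4 toward a mixture. Smarca2 (chr19:26605050-26778322) had 74.5, 74.7, 149.9 and 166 normalized counts in replicates 1 to 4 at 0 h. By 16 h it had 250.5, 223, 253 and 275, followed by 423, 385, 374 and 443 after 24 h and 630.3, 617, 798 and 737 after 96 h. The groups from 16 h onward did not overlap the 0 h group, whereas those of 2, 4 and 8 h did. On the log2(normalized count + 1) scale, it differed from 0 h by -0.41 after 2 h, and by 1.19, 1.89, 2.35 and 2.66 (SE 0.30) after 16, 24, 48 and 96 h. For 48 h against 2 h, both in serum medium but for unlike numbers of hours, it was 2.76. The starting level differed between the replicate sets, with replicates 3 and 4 at 2.12 times replicates 1 and 2 at 0 h, so the ratio of 96 h to 0 h was 8.36 in replicates 1 and 2 and 4.86 in replicates 3 and 4.

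Smarca4 (chr9:21616169-21704230), the catalytic subunit that ES cells rely on, started from 1539, 2004, 2139.9 and 2234 normalized counts and ended with 1869, 1748, 2510.5 and 2232. Its time-point means lay between 1782 at 48 h and 2335 at 16 h, only the 16 h samples did not overlap the starting samples, and the final log2 fold change was 0.08 (SE 0.12). Per kilobase of exon, Smarca2 made up 2.54% ± 0.761 (SD, n = 4) of the ATPase position in uninduced cells. Its share then stood at 4.65% ± 0.461, 7.81% ± 0.987, 12.7% ± 0.950 and 13.2% ± 0.503 for 16, 24, 48 and 96 h. The size of this share depends on the length used for Smarca2, whose 46 annotated transcripts cover 14269 exonic bases while the longest holds 5921. With the longest transcript the share went from 5.81% to 26.5%. The log2 ratio of Smarca2 to Smarca4 needs no length to follow over time: it went from -4.17 ± 0.469 at 0 h to -1.58 ± 0.0633 at 96 h, a change of 2.59, with 3.02 in replicates 1 and 2 and 2.17 in replicates 3 and 4. The summed level of the position at 96 h was 118% of that at 0 h, and its samples overlapped.

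**Figure D2:**
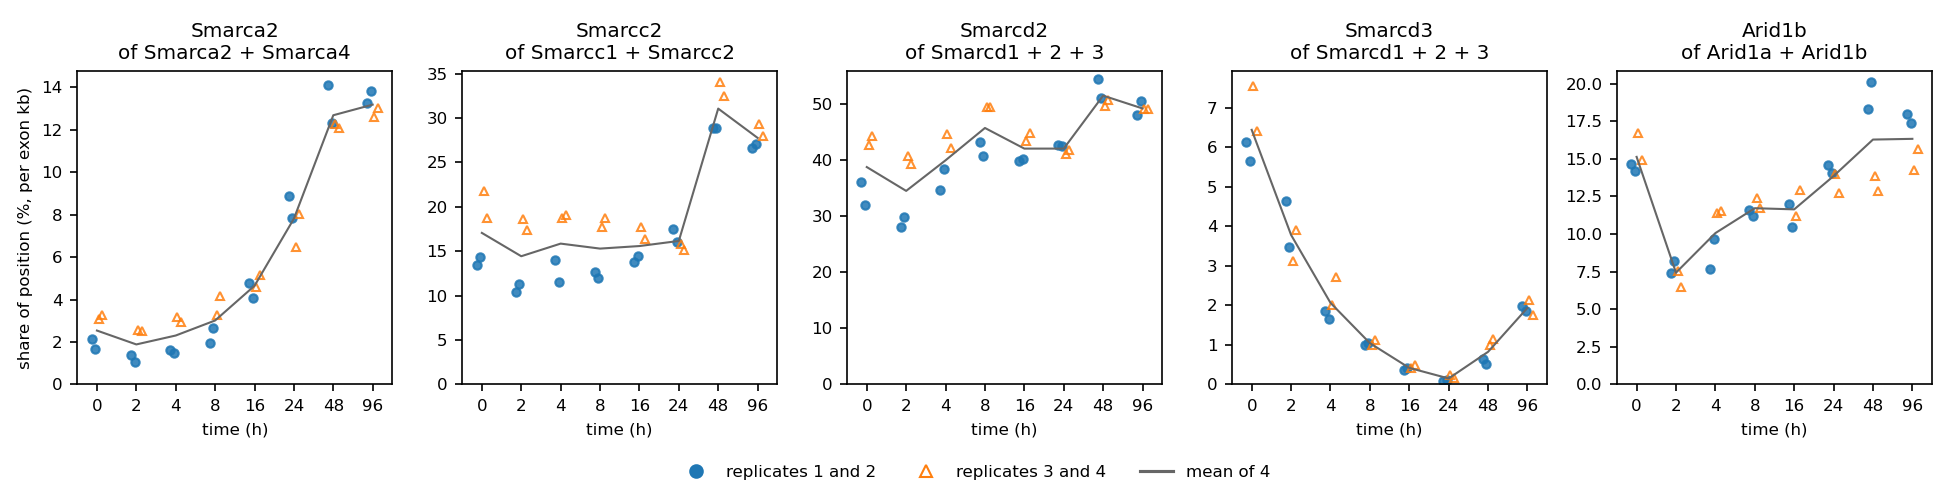
Share (%) of Smarca2, Smarcc2, Smarcd2, Smarcd3 and Arid1b in the summed level of the subunit position of each, per kb of exon, against time in h (evenly spaced positions), in each sample. Filled circles are replicates 1 and 2, open triangles replicates 3 and 4, lines join the means of 4, and all axes start at 0. Smarca2 climbed to 13.2% at 96 h, Smarcc2 stepped up between 24 h (16.2%) and 48 h (31.1%), Smarcd3 reached 0.152% at 24 h, and Arid1b dipped to 7.43% at 2 h.

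At the scaffold position, which holds the complex core together, Smarcc1 fell late and Smarcc2 first dipped and then rose. Smarcc1 (chr9:110117708-110240178), the paralogue typical of ES cells, began with 2836, 3051, 2603 and 2535 normalized counts, passed through 1990.2, 2166, 2364 and 2498 by 24 h and ended with 1713, 1552, 1757 and 1710.4. Its level hardly moved during the first 16 h, and its later groups sat wholly below the starting group. The log2 fold changes for 24, 48 and 96 h were -0.29, -0.70 and -0.71 (SE 0.09). The ratio of 48 h to 0 h was 0.549 in replicates 1 and 2 and 0.689 in replicates 3 and 4.

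Smarcc2 (chr10:128459248-128490482) began with 312, 361, 513 and 416 normalized counts and had 300.3, 294, 315 and 317 by 24 h. It then had 464, 465, 658 and 593 by 48 h and 441, 409, 517 and 469.9 by 96 h. Every later group overlapped the starting group, but within each replicate set the 48 h mean exceeded the starting mean, at 1.38 times in replicates 1 and 2 and 1.35 times in replicates 3 and 4. Under scaling to total reads its final log2 fold change turned from 0.22 to -0.05. The share of Smarcc2 was 17.1% ± 3.9 in uninduced cells, 16.2% ± 0.999 by 24 h, 31.1% ± 2.63 by 48 h and 27.8% ± 1.18 by 96 h. In this share the 48 and 96 h groups did not overlap the starting group, and the earlier groups did. The log2 ratio of Smarcc2 to Smarcc1 changed by 1.15 from 0 to 48 h, by 1.33 in replicates 1 and 2 and 0.97 in replicates 3 and 4. This step fell between 24 and 48 h, whereas the Smarca2 share already stood apart from 0 h at 16 h. The summed level of the position fell to 70.2% of its 0 h value at 96 h.

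The BAF60 position, through which transcription factors are known to contact the complex, had 3 paralogues with 3 courses. Smarcd3 (chr5:24590818-24624411) began with 156, 153, 192 and 162 normalized counts, had 105, 74.7, 62.1 and 82.9 by 2 h and had 21.2, 22.3, 20.2 and 22.8 by 8 h. The 24 h samples had 2.4, 3.13, 6.09 and 4.08, which are 2, 5, 3 and 5 reads. The 48 h samples had 14.1, 11.3, 24.6 and 27.9. These were 0.0824 times the 0 h mean in replicates 1 and 2 and 0.148 times in replicates 3 and 4. The 96 h samples had 42.4, 35.8, 45.2 and 35.0. Already the 2 h group was wholly below the starting group, as was each later one, and the 96 h group was wholly above the 24 h group. The mean at 0 h was 42.2 times that at 24 h. The 15 reads at 24 h have an exact 95% Poisson interval of 8.4 to 24.7, which covers counting error only. The log2 fold changes for 2, 4, 8, 16, 24, 48 and 96 h were -1.04 (SE 0.23), -1.96, -2.88, -3.96, -5.13, -3.11 and -2.04. The decline was already under way at 2 h and went on after Dox was withdrawn, and 48 h against 2 h gave -2.07 in serum medium.

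Of the exonic bases of Smarcd3, 48.2% overlap Chpf2 on the other strand, which encodes a chondroitin polymerizing factor. The libraries were stranded, but the strand setting of the counting was not given in the sources used here. The mean of Chpf2 itself was 80.0 normalized counts in uninduced cells and 102, 271 and 438 for 24, 48 and 96 h, so it was higher at the late time points where Smarcd3 returned in part, and its part in that return was not tested. The neural markers, summed, went from 329 to 497 normalized counts at 0 h to between 13.2 and 29.9 at 48 h and 211 to 270 at 96 h, and mesoderm and heart markers from 52.9 to 436 to between 6.62 and 15.1 at 96 h. The latter differed between the sets at first, with means of 433 in replicates 1 and 2 and 62.3 in replicates 3 and 4 at 0 h and of 206 and 51.0 at 2 h. Their part in the Smarcd3 course was not tested. In these bulk samples, fewer cells with a transcript and less of it per cell cannot be told apart.

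Smarcd1 (chr15:99702129-99713991) began with 1154, 1328, 996 and 982 normalized counts and ended with 837, 719, 812 and 769.6, and its groups of 8, 48 and 96 h were wholly below the starting group. At 48 h the sets differed in size, with 0.654 times the 0 h mean in replicates 1 and 2 and 0.947 times in replicates 3 and 4. It was back at a mean of 1180.4 at 24 h between these declines. Of the exonic bases of Smarcd1, 12.7% overlap Gm17349 and Gm34939 on the other strand, and their part in its values was not tested. Smarcd2 (chr11:106263179-106272972) began with 643, 606, 760.1 and 786, dipped to 446, 451, 569 and 586 by 2 h and had 843, 791, 856 and 864 by 48 h. It was below all 0 h samples at 2 h, above all of them at 48 h, and at 96 h, with a mean of 703, overlapped them. The share of Smarcd2 for 0, 2, 48 and 96 h was 38.7% ± 5.73, 34.5% ± 6.48, 51.5% ± 2.09 and 49.2% ± 1.01, so Smarcd1 and Smarcd2 ended at nearly equal shares, with Smarcd1 at 48.9% ± 0.970. The change in the log2 ratio of Smarcd2 to Smarcd1 from 0 to 48 h was 0.62, but 1.00 in replicates 1 and 2 and 0.23 in replicates 3 and 4, which began apart and met at 24 h. Smarcd3 held 6.44% ± 0.803 of the position in uninduced cells, 0.152% ± 0.0652 by 24 h and 1.94% ± 0.162 by 96 h.

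**Figure D3:**
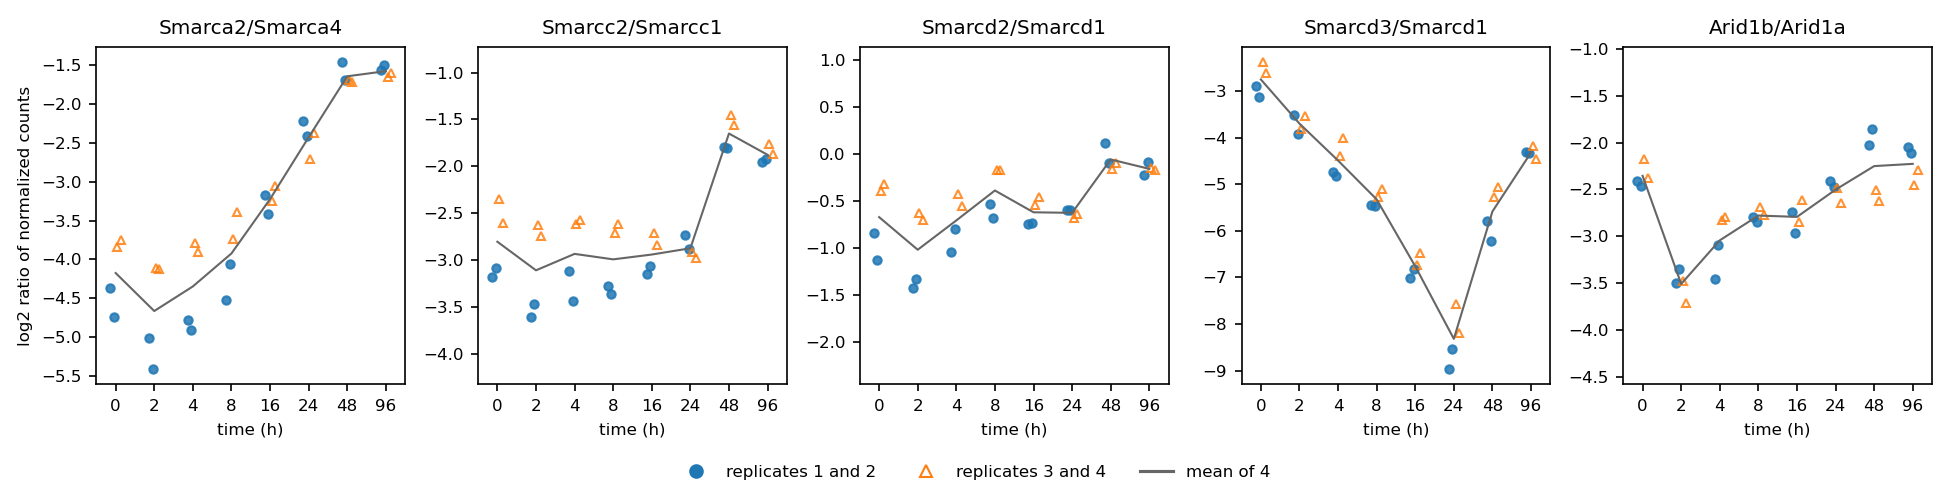
Log2 ratio of the normalized counts of 2 paralogues of a position in each sample against time in h (evenly spaced positions). Filled circles are replicates 1 and 2, open triangles replicates 3 and 4, and lines join the means of 4. The replicate sets lie apart at 0 h for Smarca2/Smarca4, Smarcc2/Smarcc1 and Smarcd2/Smarcd1 and close together at 24 h, and Arid1b/Arid1a reached its lowest mean, -3.51, at 2 h.

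The ARID1 pair, whose products define canonical BAF and bind DNA, moved in opposite directions at 2 h and returned. Arid1b (chr17:4994332-5347656) began with 262, 346, 395 and 366 normalized counts, had 196, 219, 211 and 191 by 2 h and ended with 363, 326, 330.1 and 359. Arid1a (chr4:133679008-133756769) began with 1389.9, 1907, 1788 and 1904, had 2228, 2225, 2347 and 2503 by 2 h and ended with 1506, 1413, 1805 and 1760.5. At 2 h all samples of Arid1b were below and all samples of Arid1a above those at 0 h, and at 96 h both genes overlapped their 0 h samples. The log2 fold changes at 2 h were -0.73 (SE 0.13) for Arid1b and 0.42 (SE 0.13) for Arid1a. The share of Arid1b accordingly went from 15.1% ± 1.12 to 7.43% ± 0.708 within 2 h, and then to 10.1% ± 1.82, 13.9% ± 0.790 and 16.3% ± 1.68 for 4, 24 and 96 h. Its log2 ratio to Arid1a was below all 0 h samples from 2 to 16 h. At 48 h the replicate sets parted: this ratio stood 0.50 above 0 h in replicates 1 and 2 and 0.29 below it in replicates 3 and 4.

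Actl6a (chr3:32706298-32726973), an actin-related subunit found in proliferating stem and progenitor cells, began with 1927, 1800.4, 1664 and 1604 normalized counts and had 1253, 1277, 1123 and 1280.2 by 24 h. It then had 730.2, 719.8, 712 and 635 by 48 h and 855, 842, 822 and 789 by 96 h. The groups of 16 h and later were wholly below the starting group, and the replicate sets moved alike, to 0.389 and 0.412 times 0 h at 48 h. The log2 fold changes for 24, 48 and 96 h were -0.50, -1.32 (SE 0.08) and -1.08. Its neuronal paralogue Actl6b did not take its place: it had 0 reads in 28 libraries and 1 read in the other 4. A floor of 3 reads would be 0.113% to 0.779% of the reads on both genes in a library, so a larger share was not missed for lack of depth. Of the exonic bases of Actl6a, 11.6% overlap Mrpl47 on the other strand, which had a mean of 559 normalized counts at 0 h and 330.1 at 48 h. Its part in the Actl6a values was not tested.

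Counted against 0 h at an FDR below 0.1 (limma), 1 member was higher and 3 were lower at 2 h, where 22.2% of all 15227 genes tested were higher and 22.6% lower. For 4 h the members were 0 higher and 4 lower (24.7% and 23.8% of all genes), for 8 h 1 and 3 (26.3% and 22.8%), for 16 h 3 and 2 (28.0% and 25.3%) and for 24 h 1 and 4 (31.2% and 30.7%). For 48 h they were 3 and 5 (36.1% and 37.3%), for 96 h 1 and 4 (38.0% and 38.5%), and for 48 h against 2 h 4 and 6 (36.9% and 38.3%). Smarcd3 was the 1 member lower by at least 4-fold at 48 and at 96 h, as were 7.09% and 10.3% of all genes. Smarca2 was the 1 member higher by at least 4-fold at these time points, as were 8.48% and 9.28% of all genes. All 10 members passed the filter on low counts. The members were selected on these values, so their counts describe them and nothing is read from the comparison with all genes. The direction of calls over all genes depended on the scaling, with 49.5% of calls higher for 2 h here, 35.5% by total reads and 61.6% by the upper quartile, and for 96 h 49.7%, 36.8% and 45.8%. All comparisons against 0 h share the same 4 control samples.

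Of 21 other genes of SWI/SNF complexes, 17 passed the filter on low counts, and Actl6b, Dpf3, Bcl11a and Bcl11b did not. At an FDR below 0.1, the numbers that rose for 2, 4, 8, 16, 24, 48 and 96 h were 6, 5, 6, 6, 3, 4 and 4, and the numbers that fell were 5, 4, 5, 2, 3, 6 and 6. In 48 h against 2 h, 3 rose and 8 fell. Averaging within each replicate set, an alternative chosen after seeing the data, called 7, 5 and 5 of them for 2, 8 and 16 h in place of 11, 11 and 8. The split moved with the scaling: by the upper quartile 6 of 8 calls were higher for 2 h, 3 of 10 for 48 h and 1 of 12 for 48 h against 2 h, and by total reads 5 of 9 were higher for 16 h, 3 of 11 for 48 h and 3 of 12 for 96 h. The median log2 fold change of the 17 was -0.05 at 48 h and 0.00 at 96 h, beside -0.02 and -0.03 over all genes. Dpf2, Smarce1 and Ss18l1 did not pass the test in any comparison.

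Bicral, which encodes a subunit of the non-canonical BAF complex that lacks an ARID protein, fell furthest among them. It began with 654, 747, 802 and 891 normalized counts, had 289.6, 296, 288 and 280.5 by 16 h and ended with 141, 157, 113 and 109.7. These 3 groups did not overlap. Its log2 fold changes for 2, 16, 48 and 96 h were -0.08, -1.41, -2.20 and -2.57 (SE 0.10), with limma adjusted p of 0.58, 1.8e-12, 1.3e-17 and 1.5e-19. Its paralogue Bicra had a log2 fold change of -0.11 at 96 h (SE 0.21, limma, adjusted p = 0.66). At 48 h against 2 h Bicra was called higher (0.58, SE 0.21, limma, adjusted p = 0.017), where Bicral was at -2.11. The difference between the genes was not tested. Of the exonic bases of Bicral, 11.3% overlap a gene on the other strand, Gm26904.

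Bcl7a, a shared core subunit, began with 167, 188, 222 and 227 normalized counts and ended with 73.2, 67.3, 42.7 and 68.1, a log2 fold change of -1.68 (SE 0.16, limma, adjusted p = 8.4e-11). Of its paralogues, Bcl7c also fell at 96 h (log2 fold change -0.72) and Bcl7b rose (0.35), the latter not called under scaling to total reads. Dpf1, a histone-reading BAF subunit known from neurons, rose early, was high again at 16 h and fell later. It began with 60.7, 72.7, 50.8 and 43.4 normalized counts and had 187, 178, 116 and 113 by 2 h. It had 140, 156, 128 and 112 by 16 h, 30.2, 22.6, 51.9 and 54.7 by 48 h and 57.3, 46.3, 62.8 and 58.6 by 96 h. Its 48 h mean was 0.395 times the 0 h mean in replicates 1 and 2 and 1.13 times in replicates 3 and 4. In limma its log2 fold change was 1.36 for 2 h (SE 0.23, adjusted p = 2.6e-05), 1.24 for 16 h (adjusted p = 5.9e-05) and -1.92 at 48 h against 2 h (adjusted p = 1.7e-08). Actb, the cytoskeletal actin that is also a core subunit, rose by 1.10 on the log2 scale at 2 h (SE 0.14, limma, adjusted p = 4e-07) and 1.11 at 96 h (adjusted p = 5.6e-08). In between it was back at 0.05 for 24 h (limma, adjusted p = 0.8). Its 24 h mean was 0.792 times 0 h in replicates 1 and 2 and 1.35 times in replicates 3 and 4, and its 48 h mean 1.17 and 2.04 times. Actb serves mainly outside the complex. The 4 genes of PBAF, the complex with ARID2 in place of ARID1, did not move as 1 group: Pbrm1 rose in every comparison against 0 h and Arid2 from 2 to 24 h, and these calls were kept under all 26 alternatives run. Arid2 at 48 h (log2 fold change 0.13, limma, adjusted p = 0.057) turned to -0.00849 under scaling to total reads. Phf10 was called higher at 8, 16 and 24 h (0.45, 0.30 and 0.49) and Brd7 lower at 2, 4, 8, 48 and 96 h (-0.18, -0.18, -0.22, -0.22 and -0.21). Each of these 8 calls was lost when replicates were averaged within each set, and 3 of them, Phf10 at 16 h and Brd7 at 2 and 4 h, also under scaling to the upper quartile. At 48 h against 2 h, both in serum medium, Arid2 was lower (-0.61, limma, adjusted p = 1.3e-10), as was Phf10 (-0.29, adjusted p = 0.075). Pbrm1 (-0.03, limma, adjusted p = 0.78) and Brd7 (-0.04, adjusted p = 0.63) were not called there.

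**Figure D4:**
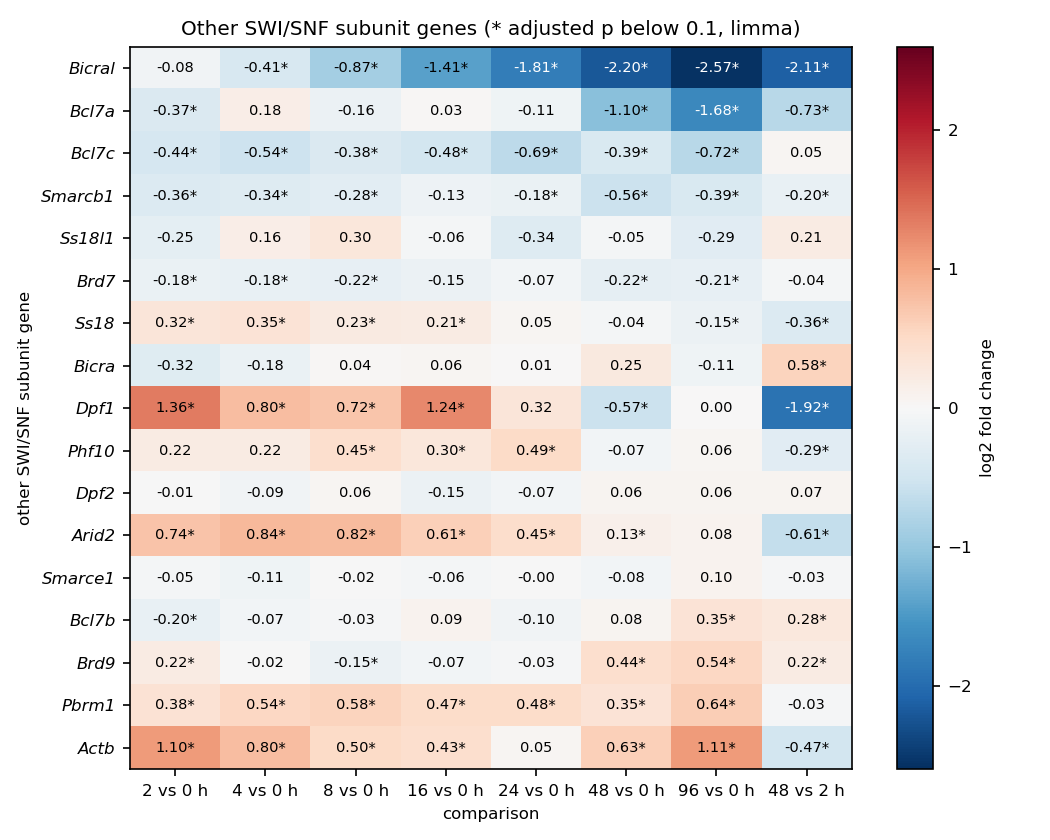
Log2 fold change of the 17 other SWI/SNF subunit genes that passed the filter (rows, ordered by 96 h against 0 h) in 8 comparisons (columns); red is higher and blue lower, and an asterisk marks a limma adjusted p below 0.1. Bicral runs from -0.08 at 2 h to -2.57 at 96 h, and Dpf1 from 1.36 at 2 h to -0.57 at 48 h.

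Among 9963 other genes, those whose 8 time-point means tracked Smarca2 most closely were Carmil1 (Pearson r = 0.998 over 8 time points), Alg8 (0.998) and Ctdspl (0.997). For Smarcd3 they included Gpr107 (0.977) and Rbm38 (0.967), whose own range was far smaller: Gpr107 went from 1000 normalized counts at 0 h to 521 at 24 h and 827 at 96 h. These correlations describe time-point means from the same libraries. With scaling to total reads, the median log2 fold change over all genes was -0.13 at 2 h, -0.16 at 48 h and -0.29 at 96 h. In the main scaling it was -0.03, -0.02 and -0.03. With total-read scaling, the fold changes of Smarca4, Smarcc2, Smarcd2 and Arid1b at 96 h changed sign (main values of 0.08, 0.22, 0.02 and 0.02). Shares and ratios within a position are not touched by this scaling.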

How the data were processed

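Polyadenylated RNA (TruSeq Stranded mRNA) was sequenced as 50-base single reads. Per the submitters' processing notes, reads were handled with FastQC 0.11.8, cutadapt 2.7, HISAT2 2.1.0 and featureCounts (Subread 1.6.4) on GRCm38.p6, for quality control, trimming, mapping and counting per gene; the strand setting of the counting is not given in the sources used here. The authors deposited log2 values from a variance-stabilizing transformation of gene counts. The transformation was inverted to normalized counts, which returned whole reads for 100% of values (tolerance 1e-06 reads).

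Genes with at least 10 normalized counts in at least 4 samples were fitted with limma 3.58.1 (R 4.3.3, trend) on log2(normalized count + 1) over all 32 samples, and p-values were adjusted by Benjamini-Hochberg over all genes tested. Calls used an FDR below 0.1. Shares divide counts per kb of merged exons (GENCODE vM21) by the sum over a position. A floor of 3 reads stood for genes at 0.

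Members and lists were chosen with earlier results of these data known. Members are therefore described without p-values, and their calls are counted as a description only. The 21 other subunits were tested where they passed the filter. Named among them were those called with at least a 2-fold change in any comparison, and Actl6b; Bicra, the other Bcl7 genes, the PBAF genes and the genes without a call were named after their values were seen. The 3 genes most like each member with a 4-fold range were chosen by Pearson correlation, and 1 of these is not reported here. Alternatives covered scaling, filter, pseudocount, voom, blocks, lengths and left-out samples.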

Additional observations from a re-analysis of the deposited data

Results flagged for a closer look

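The share of Smarca2 at the ATPase position at 48 h stood out in replicate 1, at 14.1% against 12.1% to 12.3% in the other 3 replicates. It was the 1 group with a sample this far from the rest among 120 groups of 4 examined (levels of the 10 members and shares of 5 paralogues), where chance alone gives about 1 in 20.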

How the results depend on the processing

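Replicate numbers did not pair the samples: deviations from the group means correlated by 0.196 on average for the same number (lowest -0.0428 of 112 pairs), by 0.196 for the other number of the same set and by -0.196 across sets. With the replicate block, 13 other subunits were called at 2 h in place of 11, 10 at 4 h in place of 9 and 10 at 16 h in place of 8, and the counts at 8, 24, 48 and 96 h and at 48 h against 2 h did not change. The block left the change of each log2 ratio as it was, by construction.

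Lengths moved the shares. Without length scaling, Smarca2 went from 5.42% at 0 h to 25.1% at 96 h, Smarcc2 from 12.8% to 24.2% at 48 h, Smarcd2 stood at 48.5% at 48 h, Smarcd3 at 8.39% at 0 h and Arid1b at 16.4% at 0 h. With the longest transcript, Smarca2 went from 5.81% to 26.5% and Arid1b from 12.4% at 0 h to 5.99% at 2 h. The change of Arid1b/Arid1a at 2 h was -0.99 in replicates 1 and 2 and -1.31 in replicates 3 and 4. Averaging within each set, an alternative chosen after seeing the data, called 7 other subunits at 2 h, 5 at 8 h and 5 at 16 h. Of other subunits lower by at least 4-fold, replicates 1 and 2 alone gave 0 at 48 h, replicates 3 and 4 alone gave 2 at 96 h, the upper quartile scaling gave 2 at 48 h against 2 h, and leaving out replicates gave 1 to 2 there, against 1 each in the full data. Genes near the 4-fold line lie behind these counts. Bicral at 48 h was at 0.260 times its 0 h mean in replicates 1 and 2. Bcl7a at 96 h was at 0.247 times in replicates 3 and 4, and Dpf1 lay at -1.92 in the last comparison, just short of 4-fold. Why the sets differed was not tested. For the calls of at least 2-fold of Actb, Dpf1, Bicral and Bcl7a, all 312 values under alternatives kept their direction and their call. Smaller calls of these genes, such as Dpf1 at 48 h (-0.57), were not among these values. The next values were of Pbrm1, Arid2, Phf10 and Brd7 in their calls against 0 h, and of Bcl7b, Bcl7c and Bicra at 96 h. Of these, 561 kept their call, or for Bicra the lack of one. A further 62 lost the call and 1 turned: Arid2 at 48 h, to -0.00849 under scaling to total reads. A turn was looked for only in called results, so not for Bicra. Depth limits Smarcd3 most, with 2 to 5 reads per library at 24 h. In all, 79 values of the shares, 58 of the log2 ratio changes and 264 of the members' log2 fold changes stayed within the replicate spread. Beyond it lay 11, 2 and 16. Not all of these are listed: under total-read scaling Actl6a at 96 h went from -1.08 to -1.34. Of the counts of other subunits, 274 stayed within 1.5 times and 12 did not.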
